A study of Homo sapiens with 2 samples.

Results

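The haemato-endothelial mesoderm and endocardium genes described here are KDR, PDGFRA, CDH5, ETV2, TAL1, LMO2, RUNX1, SOX7 and NFATC1. They were examined for peaks of the DNA demethylation enzyme TET1 in human cardiac progenitors. The 9 genes were given with their spans on hg19 in whole kb, and each span was widened by 20 kb on either side. Every deposited peak that overlapped such a window by at least 1 base was a member. This gave 45 of the 46208 peaks in the list, and all 9 windows held at least 1.

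The cells came from H1, a long-established human embryonic stem cell line whose own TET1 gene had been fitted with a V5 epitope tag, and were taken on day 7 of monolayer differentiation towards heart. The medium contained 6 µM CHIR99021, which activates WNT signalling, until day 2, and 5 µM of the WNT antagonist IWP2 between day 3 and day 5. The data consisted of 1 V5 ChIP library and 1 input library, both from such cells, and the list holds the positions where peaks were called in the ChIP library over input. Both libraries carry a wild-type genotype entry in the labels although the design names the tagged line, the labels do not say how many clones of it were used, and they list no V5 ChIP of untagged cells, so TET1 signal and other signal of the antibody cannot be told apart. There were no replicates, so no value below has a replicate error and no test between conditions was possible. A peak list holds no expression values, so the labelled cell type could not be checked against marker levels.

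Endothelium, blood, endocardium and part of the heart muscle arise from mesoderm that displays the receptor encoded by KDR. The receptor encoded by PDGFRA, when present with KDR, marks mesoderm with cardiac potential. ETV2, an ETS factor, switches on the haemato-endothelial programme and acts upstream of TAL1 and its partner LMO2. RUNX1 is required where blood cells emerge from endothelium, CDH5 encodes the cadherin that joins endothelial cells, and NFATC1 is active in the endocardium, where heart valves form. TET1 oxidises 5-methylcytosine, the first step of active DNA demethylation, and carries a CXXC domain, a module known for binding CpG-rich DNA.

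Because of that domain, the CpG dinucleotides of the genes' promoters are shown beside the peaks. The RefSeq promoter table used here (GRCh38.p14) held 9 entries of 300 bases (250 before to 50 after a transcription start) for 6 of the 9 genes. It held none for LMO2, CDH5 and SOX7. The 7 sequences printed show how far the CpG content of these genes' starts ranged; each runs 5′ to 3′ on its own strand with every CpG in capitals. Where a gene has more than 1 entry, number 1 is the more upstream start. KDR is at chr4:55125546-55125845 (minus strand), PDGFRA promoter 1 at chr4:54229043-54229342 and promoter 2 at chr4:54233710-54234009 (plus strand), ETV2 at chr19:35641495-35641794 (plus strand), TAL1 promoter 1 at chr1:47232286-47232585 (minus strand), RUNX1 at chr21:34888650-34888949 (minus strand) and NFATC1 promoter 1 at chr18:79395680-79395979 (plus strand), all on GRCh38.p14.

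KDR promoter: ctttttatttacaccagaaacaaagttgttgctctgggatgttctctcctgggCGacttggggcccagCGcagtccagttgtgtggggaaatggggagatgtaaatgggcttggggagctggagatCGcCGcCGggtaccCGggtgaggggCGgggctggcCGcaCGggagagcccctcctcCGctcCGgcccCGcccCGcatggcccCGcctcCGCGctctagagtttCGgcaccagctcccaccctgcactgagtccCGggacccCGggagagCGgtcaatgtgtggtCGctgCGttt

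PDGFRA promoter 1: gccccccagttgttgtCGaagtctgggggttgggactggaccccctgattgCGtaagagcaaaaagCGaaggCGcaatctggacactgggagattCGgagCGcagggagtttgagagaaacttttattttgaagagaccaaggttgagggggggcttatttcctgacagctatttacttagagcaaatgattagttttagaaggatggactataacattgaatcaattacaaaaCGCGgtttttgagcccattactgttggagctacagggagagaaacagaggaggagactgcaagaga

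PDGFRA promoter 2: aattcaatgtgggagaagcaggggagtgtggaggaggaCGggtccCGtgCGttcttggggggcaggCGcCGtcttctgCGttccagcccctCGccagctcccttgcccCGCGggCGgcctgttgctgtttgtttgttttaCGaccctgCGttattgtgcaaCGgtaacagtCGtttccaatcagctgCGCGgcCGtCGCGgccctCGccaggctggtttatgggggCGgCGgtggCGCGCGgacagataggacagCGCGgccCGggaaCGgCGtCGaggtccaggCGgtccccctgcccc

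ETV2 promoter: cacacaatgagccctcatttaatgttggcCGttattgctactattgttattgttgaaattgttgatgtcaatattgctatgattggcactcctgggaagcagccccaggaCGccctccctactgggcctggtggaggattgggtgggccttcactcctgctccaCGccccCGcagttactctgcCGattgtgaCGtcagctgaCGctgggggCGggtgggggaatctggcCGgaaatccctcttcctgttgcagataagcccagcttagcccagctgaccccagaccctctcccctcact

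TAL1 promoter 1: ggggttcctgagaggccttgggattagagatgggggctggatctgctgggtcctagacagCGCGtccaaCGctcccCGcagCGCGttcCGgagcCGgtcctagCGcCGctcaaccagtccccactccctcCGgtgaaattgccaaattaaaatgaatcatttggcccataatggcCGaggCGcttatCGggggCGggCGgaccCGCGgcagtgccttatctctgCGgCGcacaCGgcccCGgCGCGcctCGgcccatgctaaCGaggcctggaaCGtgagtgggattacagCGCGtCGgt

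RUNX1 promoter: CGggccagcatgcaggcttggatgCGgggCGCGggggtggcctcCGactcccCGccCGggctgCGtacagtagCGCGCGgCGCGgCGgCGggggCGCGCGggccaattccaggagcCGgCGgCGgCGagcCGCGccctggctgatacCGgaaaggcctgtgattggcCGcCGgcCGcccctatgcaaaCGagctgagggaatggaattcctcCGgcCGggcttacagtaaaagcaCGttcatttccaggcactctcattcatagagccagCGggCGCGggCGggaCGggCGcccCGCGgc

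NFATC1 promoter 1: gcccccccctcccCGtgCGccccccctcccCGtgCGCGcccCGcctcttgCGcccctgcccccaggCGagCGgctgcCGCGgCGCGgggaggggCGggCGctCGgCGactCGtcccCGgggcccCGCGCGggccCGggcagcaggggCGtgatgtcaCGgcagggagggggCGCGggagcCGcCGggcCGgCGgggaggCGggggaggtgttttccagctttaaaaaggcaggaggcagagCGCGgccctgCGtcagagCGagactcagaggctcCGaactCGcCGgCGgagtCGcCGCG

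CpG content ranged from 8 to 43 CpGs over the 9 promoters. NFATC1 promoter 1 held 43 CpGs and a second NFATC1 start 41, more than 95.02% and 93.3% of the 35116 promoters in the table. The RUNX1 promoter held 40 (more than 92.4%), PDGFRA promoter 2 held 32 (81.1%) and TAL1 promoter 1 held 30 (77.6%). KDR was nearer the middle with 22 CpGs (62.3%), and a second TAL1 start had 19 (57.1%). ETV2 with 9 CpGs (41.6%) and PDGFRA promoter 1 with 8 (39.3%) lay below the median of all promoters, which was 14 (quartiles 4 and 28). The observed number of CpGs over the number given by the C and G content was 0.38 for ETV2, 0.53 for PDGFRA promoter 1 and 0.70 for KDR, and it lay between 0.89 and 1.06 for the other 6 promoters.

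**Figure D1:**
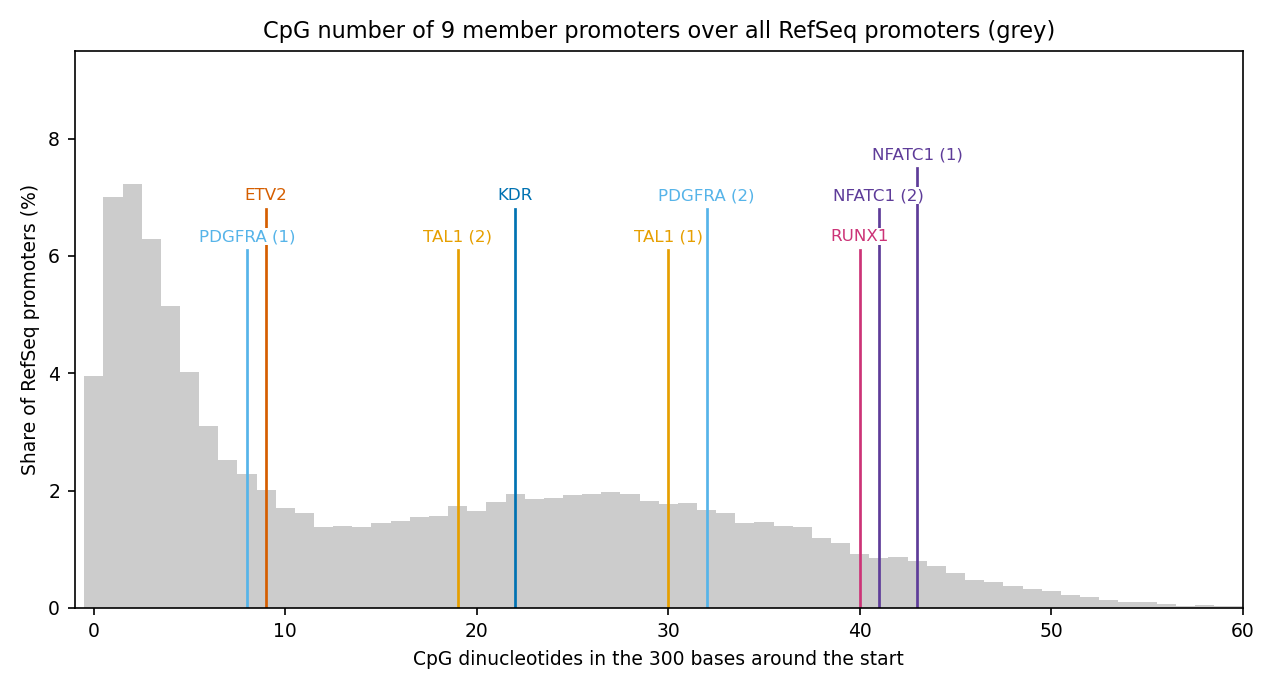
CpG dinucleotides in the 300 bases around each start (x axis) for the 9 RefSeq promoters of member genes (coloured lines; numbers in brackets mark the starts of a gene with 2 entries) and for all 35116 promoters (grey bars, y axis in percent of promoters). NFATC1 and RUNX1 stand at 40 to 43 CpGs, while ETV2 and PDGFRA promoter 1 stand at 9 and 8; the heights of the lines carry no value.

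Each peak carries a score, the authors' own value from the peak caller, which ran from 50 upwards and stood at exactly 3100 for 2030 peaks. Another 135 peaks carry higher values, up to 3233.06, and how those rank against the ties at 3100 is not stated, so scores of 3100 or more are taken as 1 class, called the ceiling. Both member peaks at the ceiling scored exactly 3100. The 45 peaks had a median score of 157 (quartiles 102 and 659), against 172 (82.4 and 659) over the whole list. Their median width was 1489 bp (quartiles 1171 and 2063 bp), against 1531 bp (1089 and 2361 bp). The 95% intervals of the members' medians, from the ranks of the 45 values, ran from 124 to 342 for the score and from 1273 to 1860 bp for the width, and contained the medians of the list. Peaks at the ceiling numbered 2 of 45, against a background of 4.69% of all peaks. Peaks with a score of 1000 or more numbered 7 of 45, or 15.6% (95% Wilson interval 7.75% to 28.8%), against 18.6%, and those below 100 numbered 11, or 24.4% (14.2% to 38.7%), against 32.9%. Peaks of 5 kb or more numbered 2, against 3.20% of the list. None of these shares departed from the background by more than its counting interval.

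The peaks were spread unevenly over the 9 genes. NFATC1 held 25 of the 45 (55.6%), ETV2 and TAL1 held 4 each, RUNX1 and CDH5 held 3 each, PDGFRA and SOX7 held 2 each, and KDR and LMO2 held 1 each. In relation to the genes, 5 peaks lay over a 5′ end, 7 upstream, 29 inside the gene or over its 3′ end and 4 downstream. The 5′ end was taken from the span and the gene's strand, and since spans are in whole kb it is known to about 1 kb. The highest score in a window was at the ceiling in PDGFRA and NFATC1, 2406.8 in RUNX1, 1844.79 in ETV2, 1193.22 in LMO2, 1106.24 in SOX7, 932.8 in TAL1, 659.36 in KDR and 111.19 in CDH5. Without replicates it cannot be said which neighbours in this order differ.

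**Figure D2:**
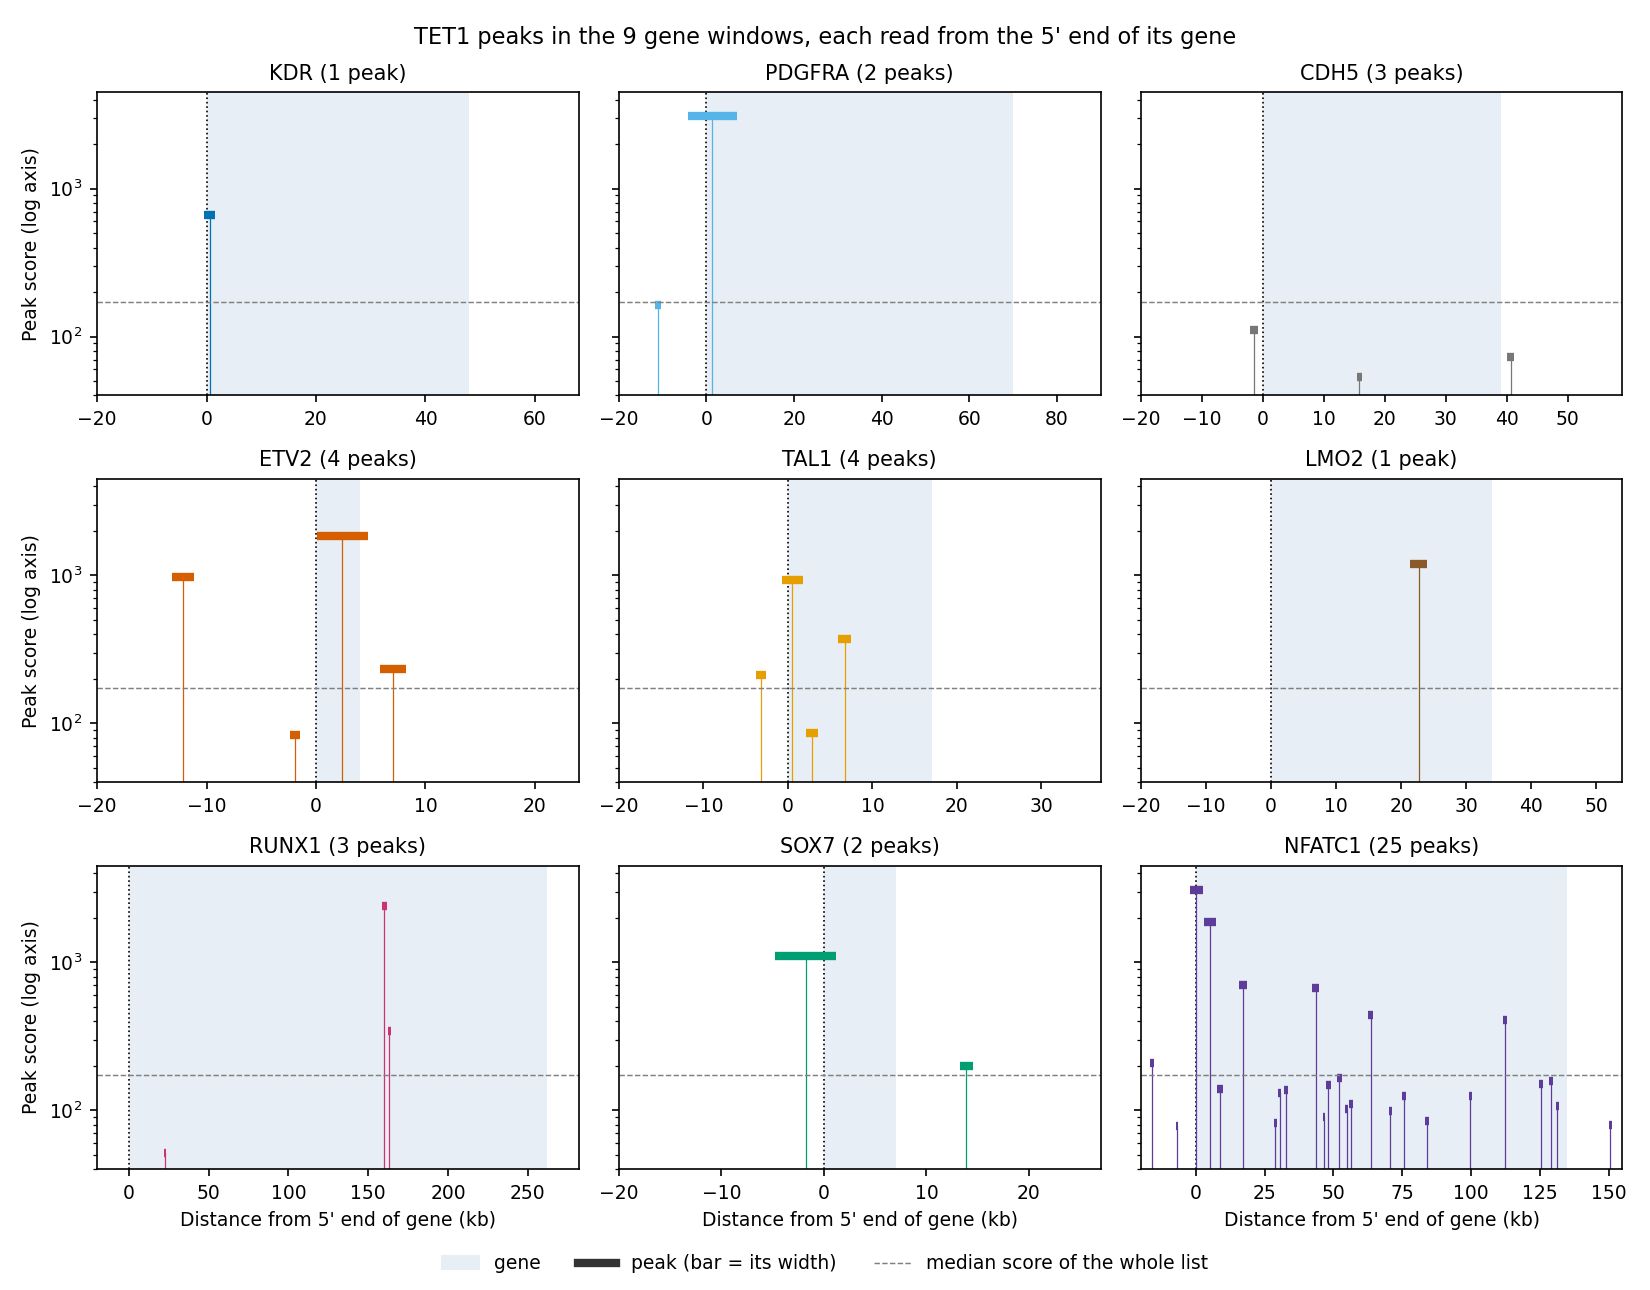
Peaks in each of the 9 windows: distance from the 5′ end of the gene in kb, read in the direction of transcription (x axis), against the peak's score (y axis, log scale). Bars show peak width, shading the gene and the dashed line the median score of the whole list (172). KDR, PDGFRA, TAL1, SOX7 and NFATC1 carry a peak over the 5′ end of the span. LMO2 and RUNX1 have their highest peak inside the gene, and all 3 CDH5 peaks lie under the dashed line.

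A peak over the 5′ end of the span as given was present in 5 genes, namely KDR, PDGFRA, TAL1, SOX7 and NFATC1. Counting peaks within 1 kb of that end made it 7. This added ETV2, whose peak began 54 bp inside the span, and CDH5, whose nearest peak ended 833 bp before it. The ETV2 span of 4 kb exceeds the RefSeq length on GRCh38.p14, 3.127 kb. Its start may therefore lie inside the span, under that peak. The CDH5 span of 39 kb also exceeds the RefSeq length, 38.094 kb. Rounding may therefore place the CDH5 start farther from its peak, not nearer. RUNX1 and LMO2 had no peak within 1 kb. The share of all genes with a peak at the 5′ end needs hg19 annotation and was not computed, so 7 of 9 has no background to be read against. In PDGFRA, TAL1, SOX7 and NFATC1 the peak over the 5′ end was the highest of 2, 4, 2 and 25 peaks in the window, and in KDR it was the only one. These 5 peaks scored 659.36, 932.8, 1106.24 and, in PDGFRA and NFATC1, 3100, and were 2063 to 11010 bp wide. The 40 other members, which include the ETV2 peak that began 54 bp inside its span, had a median score of 144. Their median width was 1402 bp, and none of these 40 peaks was at the ceiling. The Wilson interval of that share, 0% to 8.76%, contained the 4.69% of the whole list. A wide peak is more likely to cover a given base, so the difference in width is partly set by how the 5 were chosen. Wider peaks of the whole list also tended to score higher, so the difference in score may be partly set by the same choice. Peaks of like width were not compared. Outside NFATC1 the 16 other members had a median score of 206 and a median width of 1454 bp.

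**Figure D3:**
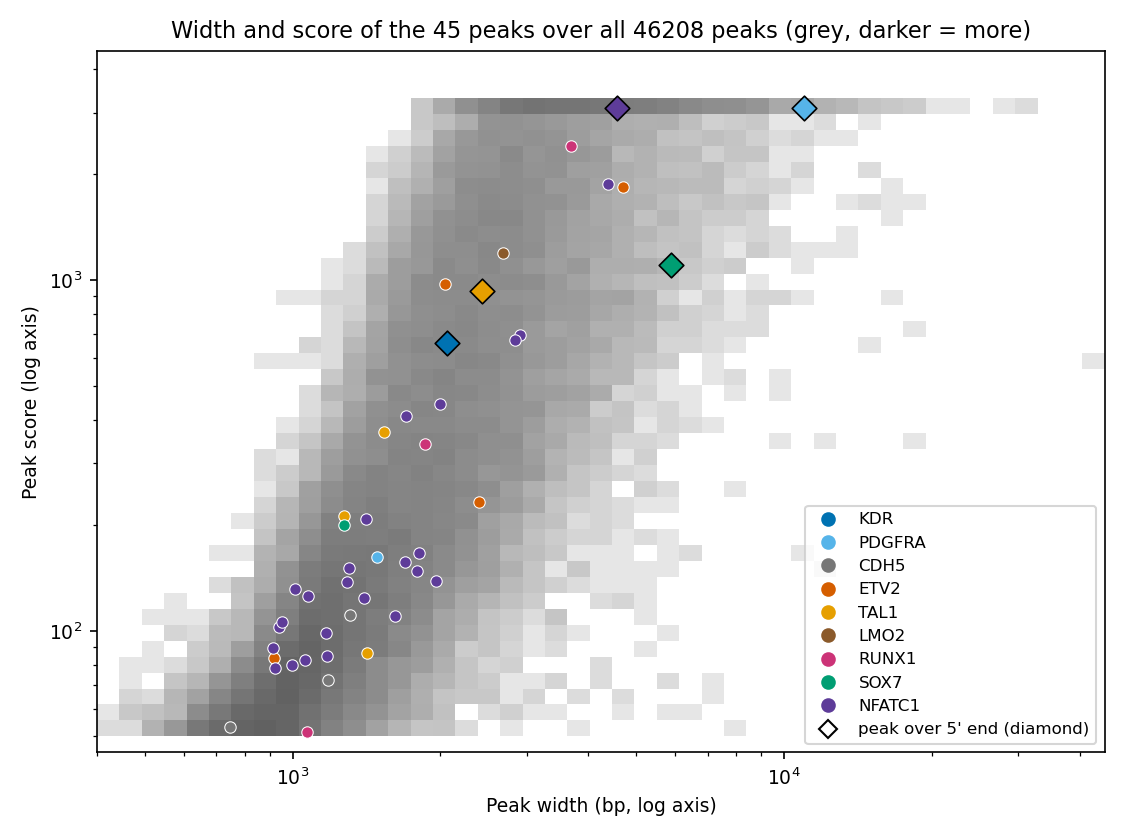
Width (x axis, bp, log scale) and score (y axis, log scale) of the 45 member peaks, coloured by gene, over all 46208 peaks (grey, darker where more peaks fall). Diamonds are the 5 peaks over the 5′ end of a span, which score from 659.36 to 3100. The ETV2 peak of 1844.79, which began 54 bp inside its span, is not among them. Of the 25 NFATC1 peaks 19 score under 300. Over the whole list 57.1% of peaks score under 233.43 and 64.5% under 341.76, so the share under 300 lies between these percentages.

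Among the receptors, KDR and PDGFRA lie close together on chromosome 4 and differed in how much peak they carried. KDR encodes the main signalling receptor for vascular endothelial growth factor A and marks the earliest haemato-endothelial mesoderm. Its window held a single peak, at chr4:55990402-55992464 on hg19, which was 2063 bp wide, scored 659.36 (75.01% of the list scored lower) and reached from 464 bp before the 5′ end to 1598 bp into the gene. No other peak touched the gene, so 96.7% of its 48 kb was 1 stretch without peaks. The nearest peak outside the window was 200.1 kb from its edge and scored 994.28.

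PDGFRA encodes the alpha receptor for platelet-derived growth factor and marks mesoderm with cardiac potential when present with KDR. Its 5′ end lay under the widest of the 45 peaks, at chr4:55090865-55101874, which spanned 11010 bp, stood at the score ceiling and was wider than 99.8% of the list. It began 4.14 kb before the 5′ end and ran 6.87 kb into the gene. The 2 RefSeq starts of PDGFRA are 4667 bp apart on GRCh38.p14, a distance shorter than the peak; positions were not carried over between builds. The CpG-poor promoter 1 and the CpG-rich promoter 2 printed above are those starts. The only other peak of the window was upstream, 10.3 kb from the 5′ end, with a score of 162.62 and a width of 1489 bp. The remaining 63.1 kb of the gene, 90.2% of it, held no peak. Covered length was 11.4% of the PDGFRA window, against 2.34% of the KDR window.

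CDH5, the vascular endothelial cadherin, had the lowest maximum score (111.19) and the lowest median score (72.4) of the 9 windows. Its 3 peaks scored 111.19 at chr16:66397856-66399167, 53.04 at chr16:66415467-66416212 and 72.4 at chr16:66440099-66441277, and were 1312, 746 and 1179 bp wide. The first ended 833 bp before the 5′ end, the second lay 15.5 kb inside the gene and the third lay past its 3′ end. All 3 were below the list's median score, and 36.7%, 3.66% and 19.4% of the list scored lower. A far stronger peak, 3920 bp wide with a score of 1329.15, began 272 bp outside the window on the side of the 3′ end, where BEAN1 is the next protein-coding gene in the RefSeq order.

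Among the transcription factors at the head of the programme, ETV2 was almost wholly covered. ETV2 is a short gene of about 4 kb, and a single peak at chr19:36132054-36136756 covered 98.7% of its span. That peak was 4703 bp wide and scored 1844.79, above 89.7% of the list. The ETV2 promoter printed above is placed on another build and was not located relative to this peak. The peaks around it scored 972.45 at chr19:36118839-36120879 (11.1 kb upstream), 83.66 at chr19:36129640-36130557 (1.44 kb upstream) and 233.43 at chr19:36137814-36140212 (5.81 kb from the 5′ end, past the gene). HAUS5, RBM42 and COX6B1 lie within 20 kb of ETV2 on GRCh38, and which of these genes each outer peak is nearest to was not determined on hg19.

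TAL1, a bHLH factor needed for all blood lineages, had 4 peaks close together around its 5′ end. The strongest, at chr1:47696260-47698690, scored 932.8, was 2431 bp wide and reached from 690 bp before the 5′ end to 1740 bp inside. A second of 212.55 lay upstream at chr1:47700549-47701821, and peaks of 86.15 at chr1:47694496-47695913 and 369.32 at chr1:47690535-47692066 lay 2.09 kb and 5.93 kb inside the gene. STIL lies within 20 kb of TAL1 on GRCh38, and whether the upstream peak falls in it was not determined. The 2 RefSeq starts of TAL1 are 620 bp apart on GRCh38.p14, less than the width of the strongest peak. Whether both lie under that peak was not determined. The 3′ part of the gene, 9.53 kb or 56.1% of the span, was free of peaks.

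LMO2, the LIM-domain adaptor that joins TAL1 to GATA factors, differed from TAL1 in having no peak at its 5′ end. Its only peak was at chr11:33889958-33892636, 21.4 kb inside the gene, with a width of 2679 bp and a score of 1193.22, above 83.9% of the list. LMO2 is known to be transcribed from several promoters, 1 of them well inside the span of its longest transcripts. Whether the peak covers a start could not be settled, since the promoter table used here held no LMO2 entry.

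RUNX1 showed the same arrangement over a longer gene. Its highest peak, at chr21:36259946-36263640, scored 2406.8 (92.9% of the list scored lower), was 3695 bp wide and began 158.4 kb inside the 262 kb gene. A peak of 341.76 at chr21:36257883-36259742 followed after a gap of 203 bp, and the pair formed a stretch of 5758 bp. RUNX1 has a distal promoter at the far 5′ end and a proximal promoter inside the gene. The distal end had no peak, the nearest being 22.2 kb away at chr21:36398695-36399766 with a score of 51.48, close to the lowest score in the list. The RefSeq promoter printed above is CpG-rich; whether it lies under the internal peak was not determined, since it is placed on another build. The largest peak-free stretch of RUNX1 was 135.1 kb, 51.5% of the gene, and 2.53% of the gene was covered by peaks.

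SOX7, an SRY-related factor of early haemogenic mesoderm and endothelium, carried a peak of 5896 bp at chr8:10586832-10592727, the second widest of the 45 and wider than 98.1% of the list. It scored 1106.24 and lay mostly upstream, reaching 4.73 kb before the 5′ end and 1.17 kb into the gene. The other SOX7 peak, at chr8:10573468-10574737, lay beyond the 3′ end and scored 199.97 at a width of 1270 bp. The 5.83 kb of the gene past the first peak, 83.3% of it, held none.

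NFATC1, the calcium-regulated factor of the endocardium, was the gene dense with peaks. Its 25 peaks covered 42.9 kb, or 24.5% of the 175 kb window, and 22 of them touched the gene itself. The strongest lay over the 5′ end at chr18:77152894-77157468, was 4575 bp wide and stood at the ceiling. The next, at chr18:77158082-77162477, scored 1875.65 at a width of 4396 bp and covered 3.08 to 7.48 kb downstream of the 5′ end. The 2 RefSeq starts of NFATC1 are 4369 bp apart on GRCh38.p14, and both promoters hold over 40 CpGs. Whether the second start lies under a peak was not determined. Together with the following peak of 138.72 the 2 strongest peaks joined, across gaps of up to 1 kb, into a stretch of 11910 bp.

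Farther into NFATC1 the peaks were many and mostly weak. The 19 that lay more than 10 kb inside the gene scored from 82.32 to 697.7, and 4 of them were above the list's median. These 4 scored 697.7 at 15.7 kb, 673.52 at 42.1 kb, 442.34 at 62.5 kb and 408.49 at 111.5 kb from the 5′ end. The largest gap between neighbouring NFATC1 peaks was 18.3 kb and the median gap 3.91 kb. Upstream, peaks of 208.14 and 78.25 lay 15.3 and 6.44 kb from the 5′ end. ATP9B lies within 20 kb of NFATC1 on GRCh38, and whether the upstream peaks fall in it was not determined. The next peak upstream ended 324 bp outside the window and scored 63.77.

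Set against their surroundings, NFATC1 was the window whose peak density stood apart. It had 143 peaks per Mb (95% Poisson interval 92.4 to 211), against 34.8 per Mb in up to 1 Mb on either side and 11.9 per Mb over chromosome 18. In the other 8 windows the interval contained the density of the flanking sequence, and those intervals were wide because each rests on 1 to 4 peaks. TAL1 had 70.2 peaks per Mb (19.1 to 180), against 39.5 in its flanks and 21.5 on chromosome 1. RUNX1 had 9.93 (2.05 to 29.0), against 12.0 in its flanks and 28.1 on chromosome 21, and its interval contains both values. KDR had 11.4 (0.288 to 63.3), against 9.5 and 10.5. The 9 windows together had 46.1 peaks per Mb (33.6 to 61.7) over 976 kb, against 18.95 over the 24 chromosomes, and without NFATC1 the density was 24.97 (15.3 to 38.6), an interval that contains the value of the whole list. Counts of neighbouring peaks are not independent, so these intervals cover counting error only.

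The share of sequence under peaks separated the windows in another way. It was above that of the flanks in 8 of 9 windows, CDH5 being the exception with 4.10% against 6.59%; how many windows around other genes exceed their flanks was not computed, so this count has no background. The largest shares were 24.5% in NFATC1, 22.9% in ETV2 and 15.2% in SOX7, against 6.17%, 10.9% and 6.26% in their flanks. PDGFRA had 11.4% against 1.46%, the largest ratio of the 9, and that share came almost wholly from 1 wide peak. KDR (2.34% against 2.26%) and RUNX1 (2.19% against 1.77%) lay close to their flanks. Against the whole chromosome the share was higher in 6 of 9 windows. It was lower in RUNX1 (2.19% against 5.58%), LMO2 (3.62% against 4.61%) and CDH5 (4.10% against 7.26%). Over all 9 windows 9.62% was covered, and 6.37% without NFATC1, against 3.69% over the whole list. Of the 51.0 kb covered outside NFATC1, PDGFRA gave 12.5 kb and ETV2 10.1 kb. The whole-list share includes sequence far from genes. Windows around other genes were not measured, so these pooled shares have no like background. KDR and PDGFRA each lie in the other's flank.

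**Figure D4:**
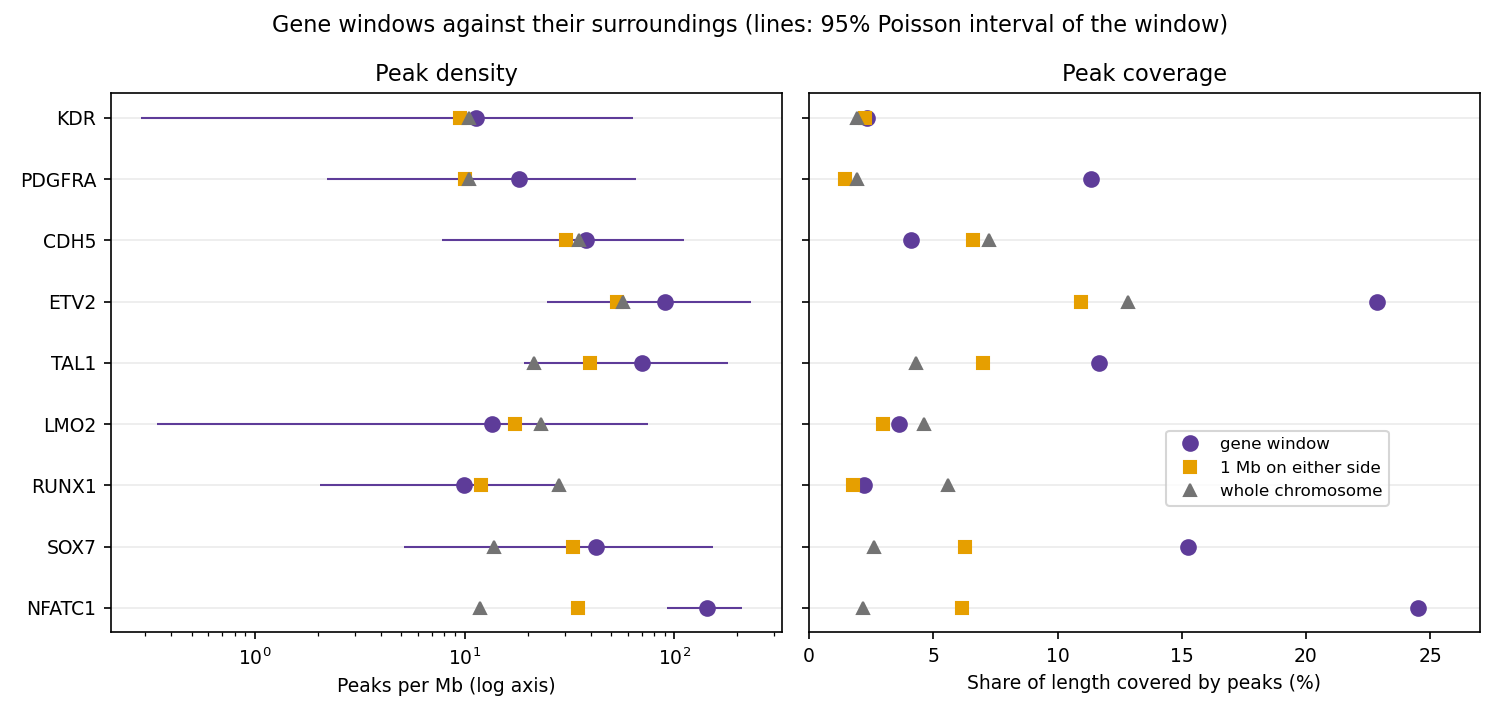
Peaks per Mb (left, log axis, lines give the 95% Poisson interval of the window) and share of length under peaks (right, percent) for each gene window (circles), up to 1 Mb on either side (squares) and the whole chromosome (triangles). NFATC1 is at 143 peaks per Mb against 34.8 in its flanks; PDGFRA, ETV2 and SOX7 exceed their flanks by covered share, while the intervals of their densities contain the flanks.

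Motifs of factors of this programme were looked up in the 9 RefSeq promoters of 6 genes, on both strands. AGATAA, bound by GATA factors, was found in 2 of 9 (ETV2 and TAL1 promoter 1), and 10.3% of all promoters in the table hold it. CCGGAA, bound by ETS factors, was found in 4 of 9 (ETV2, TAL1 promoter 1, RUNX1 and the second NFATC1 start), against 17.2% of all promoters. CCGGAA itself contains a CpG. Of the 4, ETV2 held 9 CpGs, and TAL1 promoter 1, RUNX1 and the second NFATC1 start held 30, 40 and 41. The median of all promoters was 14, and a background of like CpG content was not computed. CAGCTG, an E-box, was found in 2 of 9 (ETV2 and PDGFRA promoter 2), against 17.9%. No match overlapped a match of another motif. ETV2 was the promoter with all 3 motifs. These matches describe the letters of the promoters and show no binding.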

How the data were processed

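The data were 1 V5 ChIP library and 1 input library of day 7 cardiac progenitors. Per the submitters' processing notes, BWA 0.7.17 was the aligner and hg19 the genome build. Peaks were called with MACS, per the peak names in the file; its version is not given in the sources used here, nor are its settings. The extraction text of the labels describes DNA purification without an immunoprecipitation step. The deposited list has 5 columns and gives 1 score per peak, made by the authors' caller; its scale is not stated, and it was used only to describe and rank peaks. Peak names run from 1 to 46208 with none missing. Read depth is unknown.

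The 9 genes, their hg19 spans and the comparisons were chosen with earlier results of these data known. Spans are in whole kb and exceeded the RefSeq gene lengths on GRCh38.p14 by 0.256 to 1.61 kb. Strand came from the RefSeq promoter table for 6 genes and from general knowledge for LMO2, CDH5 and SOX7. All 9 genes are named, with every peak where there were 6 or fewer; for NFATC1 the peak at the 5′ end, those with the largest scores and, chosen after their values were seen, those above the list's median and those upstream are given. RefSeq served for names, neighbours and promoter sequences; no positions were converted between builds. The rest of the haemato-endothelial programme was not analysed here, since it needs hg19 annotation.

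Chromosome length ran from first to last peak without peak-free intervals over 1 Mb. Flanks ended at the last peak of a chromosome. Intervals are 95% Poisson (density) or Wilson (shares) and cover counting error only. Positions count from 1. Python 3.11.15, pandas 2.3.3, numpy 2.4.6, scipy 1.17.1 and matplotlib 3.10.9 were used, and the window counts were checked on simulated peaks. Alternatives were stricter score thresholds, other flanks, midpoints in place of overlaps, joining of peaks and other distances at the 5′ end.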

Additional observations from a re-analysis of the deposited data

How the results depend on the processing

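Across 6 results and 34 alternative values, 6 values moved, and the other 28 kept within 1.5 times the count or inside the counting interval. With peaks in the upper 50% of scores, the windows held 20 peaks covering 6.42% with a median width of 2415 bp. Without NFATC1, chosen after seeing the data, they held 20 peaks covering 6.37%, with a median score of 288 and a median width of 1696 bp. With no flank the median number of peaks per window was 1, against 3 with 20 kb. The number of genes with a peak within reach of the 5′ end was 6 at 0.5 kb, where CDH5 was lost, 6 for the upper 50% of scores, where CDH5 was lost too, and 7 under the other alternatives. With a flank of 50 kb the windows held 62 peaks and 7.73% was covered. Of 36 alternative counts for single genes, 9 moved. Spans in whole kb and an unstated score scale limit statements on starts and strength. No paired analysis was possible because there is only 1 library in either group.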

Other observations

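KIT, the receptor gene of blood stem cells and mast cells, is the only protein-coding gene between PDGFRA and KDR in the RefSeq table. The 739 kb between the PDGFRA and KDR windows held 3 peaks, or 4.06 per Mb (95% Poisson interval 0.837 to 11.9), against 10.5 per Mb over chromosome 4, a value inside that interval. The strongest, at chr4:55522991-55526208 on hg19, was 3218 bp wide and scored 2763.31, above 94.4% of the list and above the KDR peak of 659.36. The other peaks of that stretch scored 73.01 and 89.99. Whether the strong peak covers a start of KIT was not determined on hg19.

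From 20 to 50 kb outside the spans lay 17 more peaks, none of them near KDR, PDGFRA or RUNX1. The peak of 1329.15 beside the CDH5 window was the strongest of them and the next, 171.8 kb from the 5′ end of NFATC1, scored 554.68. TAL1 had 4 such peaks past its 3′ end, with scores from 65.84 to 213.94.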
